A study of Mus musculus with 12 samples.

Results

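The genes described here are 41 interferon-stimulated genes of the mouse, followed across transduced bone marrow cells. They were chosen as a list of symbols by their known role, with earlier results of these data known. Of the 41 genes, 37 had at least 1 probe set annotated to that gene alone, out of 12393 genes so measured in the series. Where a gene had more than 1 such probe set, as 11 genes did (53 probe sets in all), the probe set with the highest mean log2 signal over the 12 arrays stood for it. Ddx58, Ifi44 and Xaf1 had no probe set named in the annotation used here, and the probe set of Isg15 is annotated to a second gene as well, so these 4 genes were not analysed. The 37 genes comprise 3 virus sensors, 4 transcription factors, 14 antiviral effectors, 4 genes of the ISG15 system and other regulators, 6 interferon-inducible GTPases, 5 genes of MHC class I presentation and the chemokine gene Cxcl10. On all 12 arrays 27 of them lay above background, 9 did on some arrays, and Mx2 did on none.

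The series compared bone marrow cells carrying NUP98-HOX fusion genes, which join part of the nucleoporin NUP98 to a HOX homeodomain protein and are found in leukaemia. The 4 groups, with 3 arrays each from separate experiments, were cells transduced with ND13 (a NUP98-HOXD13 fusion), with NA10 (a NUP98-HOXA10 fusion), with ND13(N51S), whose homeodomain carries a mutation made to stop DNA binding, and with the GFP control, the vector that encodes only GFP. Marrow of (C57Bl/6Ly-Pep3b x C3H/HeJ) F1 mice was taken 4 days after fluorouracil at 150 mg/kg, stimulated for 48 hours with interleukin-6 (10 ng/mL), interleukin-3 (6 ng/mL) and stem cell factor (100 ng/mL), kept for 2 days on irradiated GP+E86 producer cells, a mouse fibroblast line that releases the MSCV-IRES-EGFP retrovirus, and cultured for a further 24 hours. Viable GFP+ Sca-1+ Lin- cells, a fraction rich in stem and progenitor cells, were then sorted. Every group had thus met virus and producer cells, the GFP control included, and no group of cells that had not been transduced was analysed here, so the data give no level of these genes before transduction.

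Interferon-stimulated genes form the antiviral programme of mammalian cells. Sensors of viral nucleic acid switch on type I interferons, whose receptor activates the kinases JAK1 and TYK2 and a complex with STAT2 and IRF9, which binds the interferon-stimulated response element (ISRE) in front of its target genes, whereas interferon-gamma acts mainly at gamma-activated sites (GAS). In haematopoietic stem cells the programme is known to push quiescent cells into cycle, and nucleic acids of retroviruses can be read by sensors of the programme.

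The promoters of 5 of the genes are shown because the ISRE letters separate them: Ifit1, Rsad2, Cxcl10 and Oas1a hold them and Tap1 does not. Each line gives the 250 bases before the transcription start on the coding strand, from RefSeq (GRCm38.p6), with matches to the ISRE letters (GAAA, any 2 bases, GAAA) on either strand in capitals. They lie at chr19:34640639-34640888 (plus strand), chr12:26456453-26456702 (minus strand), chr5:92348890-92349139 (minus strand), chr5:120907526-120907775 (minus strand) and chr17:34187306-34187555 (plus strand).
Ifit1: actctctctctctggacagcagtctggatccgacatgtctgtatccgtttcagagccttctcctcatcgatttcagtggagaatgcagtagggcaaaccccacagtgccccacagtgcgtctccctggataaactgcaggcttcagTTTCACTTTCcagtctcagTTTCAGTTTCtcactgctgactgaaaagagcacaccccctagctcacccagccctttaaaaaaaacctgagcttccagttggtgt
Rsad2: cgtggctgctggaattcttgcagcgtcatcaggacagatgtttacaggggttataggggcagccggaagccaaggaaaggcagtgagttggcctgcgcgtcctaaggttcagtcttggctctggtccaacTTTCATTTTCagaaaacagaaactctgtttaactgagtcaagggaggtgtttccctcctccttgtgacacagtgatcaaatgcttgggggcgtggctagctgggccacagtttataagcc
Cxcl10: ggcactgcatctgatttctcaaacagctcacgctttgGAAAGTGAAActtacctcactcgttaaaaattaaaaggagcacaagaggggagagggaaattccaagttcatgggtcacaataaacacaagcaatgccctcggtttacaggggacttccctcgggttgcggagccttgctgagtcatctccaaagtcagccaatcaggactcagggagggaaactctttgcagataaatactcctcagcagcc
Oas1a: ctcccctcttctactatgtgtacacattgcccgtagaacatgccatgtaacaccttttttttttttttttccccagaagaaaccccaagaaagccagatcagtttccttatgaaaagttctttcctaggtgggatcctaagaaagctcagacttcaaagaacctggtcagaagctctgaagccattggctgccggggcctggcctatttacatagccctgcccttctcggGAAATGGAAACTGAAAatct
Tap1: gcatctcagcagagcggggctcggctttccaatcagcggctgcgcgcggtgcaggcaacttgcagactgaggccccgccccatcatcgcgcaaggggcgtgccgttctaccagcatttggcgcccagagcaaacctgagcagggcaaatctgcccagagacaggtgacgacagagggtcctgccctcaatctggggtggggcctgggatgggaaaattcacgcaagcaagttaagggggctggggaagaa
The matches of Ifit1 began 104 and 85 bases before the start, that of Rsad2 120 bases, that of Cxcl10 213 bases, and the overlapping pair of Oas1a 20 and 14 bases. Among 33 of the 41 genes with a RefSeq window of 250 bases before to 50 bases after a start, 17 (51.5%) held the ISRE letters, against 3.99% of all 27025 genes with a window. The GAS letters TTCNNNGAA were present in 10 of the 33 (30.3%), against 9.55% of all genes. Such a match is a run of letters and not a shown binding site. Some related genes also share a chromosome: Ifit1, Ifit2 and Ifit3 chromosome 19, Oas1a, Oas2, Oasl1 and Oasl2 chromosome 5, Mx1 and Mx2 chromosome 16, and Tap1, Tap2, Psmb8 and Psmb9 chromosome 17.

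The values are MAS5 signals of the MOE430A array, on a linear scale that the authors had brought to a trimmed mean near 500.2 on each array. Background was set on each array at the 95th percentile of its 27 bacterial controls and came to 28.5 to 69.8, and 14446 to 17695 of 22626 probe sets lay above it. For 2 of the arrays something stood against the label or the RNA. The experiment record of GFP control replicate 1 names a GFP- fraction of ND13(N51S) cells beside the empty vector, and its label was kept. On ND13(N51S) replicate 2 the ratio of 3' to 5' probe sets was 48.9 for Gapdh and 9.09 for beta-actin, whereas on the other 11 arrays no such ratio exceeded 2.71. Its low values for single genes, among them those of Dhx58, Bst2, Eif2ak2 and Cxcl10 below, are to be read with this fact. For Bst2 and Cxcl10, ND13(N51S) replicate 3, with a Gapdh ratio of 2.23, read lower still (82.6 against 87.3, and 11.8 against 18.1). On second probe sets, ND13(N51S) replicate 2 was the highest array for Dhx58 (183) and the highest of its group for Eif2ak2 (109.7). The part of RNA quality in these values was not tested. Of 10 measured stem and progenitor markers, all 10 lay above background on every array. A probe set was called where limma gave an adjusted p < 0.05 (Benjamini-Hochberg over all probe sets) and a change of at least 1.5-fold, and 3 arrays against 3 cannot go below an exact two-sided permutation p of 0.1. In sorted bulk cells, fewer cells that express a gene and less RNA per cell cannot be told apart.

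None of the 37 genes was called in any comparison. In ND13 against the GFP control 0 of 37 were called in either direction, where 0.0840% of all probe sets were called higher and 0.00442% lower, and the lowest adjusted p of the 37 was 0.430 (Ifi47). For NA10 against the GFP control the background was 0.0133% higher and 0% lower and the lowest adjusted p 0.713 (Usp18), and for ND13(N51S) against the GFP control it was 0% in both directions and 0.548 (Bst2). Against ND13(N51S), ND13 had a background of 0.0133% higher and 0% lower with a lowest adjusted p of 0.267 (Ifi47), and NA10 one of 0.00442% in each direction with 0.356 (Tap2). For ND13 against NA10, 0.0177% of all probe sets were called higher and 0% lower, and the lowest adjusted p was 0.9998. For the mean of the 3 fusions against the GFP control these were 0.0265%, 0% and 0.704 (Usp18). With so few calls in the whole table, 0 of 37 is no result about these genes.

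At an unadjusted p < 0.05 of the same limma fit with the 1.5-fold limit, 0 genes were higher and 2 lower in ND13 than in the GFP control (Ifi47 and Usp18), where 3.43% of all probe sets were higher and 1.498% lower. In NA10 1 was higher (Gbp2) and 3 lower (Gbp3, Mx1 and Usp18) than in the GFP control, with a background of 2.51% and 1.52%. In ND13(N51S) 0 were higher and 3 lower (Bst2, Eif2ak2 and Oas2), with a background of 4.37% and 2.48%. Usp18 is the gene that 2 of these 3 comparisons share. ND13 against ND13(N51S) had 3 higher (Cxcl10, Oas2 and Tap2) and 1 lower (Ifi47), with a background of 3.20% and 3.78%, NA10 against ND13(N51S) had 2 higher (Gbp2 and Tap2) and 3 lower (Irf1, Mx1 and Usp18), with 2.94% and 4.85%, and ND13 against NA10 had 0 higher and 1 lower (Ifi47), with 1.98% and 1.34%.

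These counts moved with 1 array and with the pairing. When GFP control replicate 1 was left out they became 1 higher and 0 lower in ND13 (all probe sets 3.33% and 1.49%), 1 and 2 in NA10 (2.31% and 1.28%), and 0 and 0 in ND13(N51S) (4.20% and 1.78%), each against the GFP control. In the limma fit with the replicate number as a block, 0 were higher and 4 lower in ND13 (4.04% and 1.96%), 1 and 6 in NA10 (3.05% and 1.88%), and 0 and 8 in ND13(N51S) (5.13% and 3.37%) than in the GFP control, and ND13 against ND13(N51S) had 5 and 1 (4.16% and 4.31%). The methods' t-test without adjustment, at the same fold limit, called 1 of 37 for NA10 against the GFP control (2.31% of all probe sets), 1 for ND13 against ND13(N51S) (2.98%), 2 for NA10 against ND13(N51S) (3.88%) and 1 for ND13 against NA10 (2.10%), in either direction.

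Genes whose arrays did not overlap between 2 groups were counted as well, beside the share of all probe sets. Against the GFP control, 0 of 37 lay wholly higher and 3 wholly lower in ND13 (all probe sets 6.84% and 5.37%), 1 and 4 in NA10 (5.60% and 5.18%), and 0 and 1 in ND13(N51S) (8.50% and 3.45%). Against ND13(N51S), 4 lay wholly higher and 2 wholly lower in ND13 (4.28% and 8.04%), and 3 and 3 in NA10 (4.30% and 9.40%). Between ND13 and NA10 the counts were 1 and 2 (5.40% and 4.00%).

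As a group, the genes had lower signals in each fusion than in the GFP control on average. The median log2 difference of the 37 genes minus the GFP control was -0.29 in ND13, -0.34 in NA10 and -0.39 in ND13(N51S), where the median of all probe sets was 0.00, -0.01 and 0.07. Of the 37, 30 were lower in ND13, 32 in NA10 and 29 in ND13(N51S) than in the GFP control, while 50.04%, 48.7% and 56.2% of all probe sets were higher. These 3 comparisons share the GFP control arrays. Without GFP control replicate 1 the medians were -0.01, -0.05 and 0.01, with 19, 21 and 18 of 37 lower. Without GFP control replicate 2 the medians were -0.76, -0.71 and -0.81. The size of the shift thus depended on which GFP control array was left out. Within replicate number 3, which does not use GFP control replicate 1, 29, 26 and 26 of 37 genes were lower. There 49.2%, 48.8% and 53.0% of all probe sets were higher.

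By role, of the 14 antiviral effectors, 14 were lower in ND13, 13 in NA10 and 14 in ND13(N51S) than in the GFP control, with medians of -0.41, -0.52 and -0.40 on the log2 scale. Without GFP control replicate 1 the medians of the effectors were -0.06, -0.17 and 0.05, and 8, 8 and 6 of the 14 were lower. The 6 GTPases had medians of -0.64, -0.38 and -0.37 with all arrays and of -0.41, -0.13 and -0.21 without that array. For the 5 genes of MHC class I presentation the medians were -0.17, -0.05 and -0.40, and -0.22, -0.04 and -0.39 without it.

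**Figure D1:**
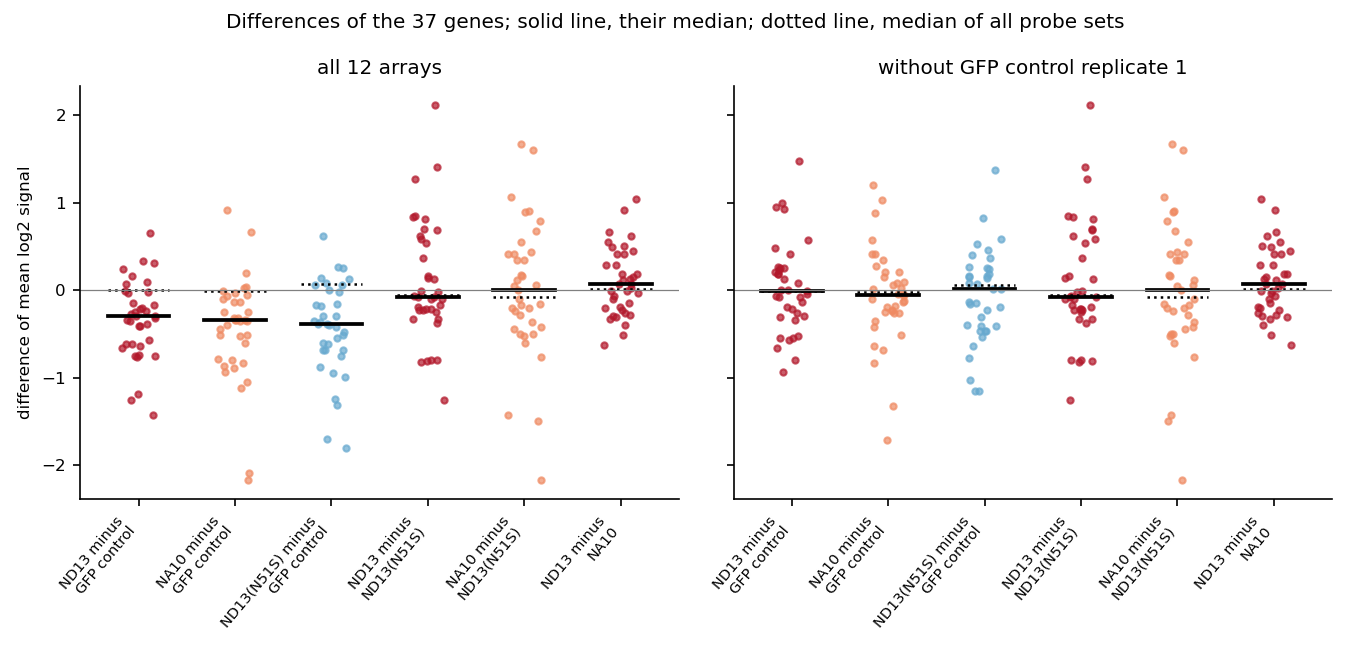
Difference of mean log2 signal for each of the 37 genes (points, coloured by the first group named) in 6 comparisons, with all 12 arrays on the left and without GFP control replicate 1 on the right. Solid lines mark the median of the 37 genes and dotted lines that of all probe sets; the solid lines of the first 3 comparisons lie at -0.29, -0.34 and -0.39 on the left and at -0.01, -0.05 and 0.01 on the right.

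Between the fusions the genes showed no common shift. Their median log2 difference was -0.07 for ND13 minus ND13(N51S), 0.01 for NA10 minus ND13(N51S) and 0.07 for ND13 minus NA10, where all probe sets had -0.06, -0.08 and 0.01. Of the 37 genes, 15 were higher in ND13 than in ND13(N51S) (all probe sets 45.0%), 19 in NA10 than in ND13(N51S) (43.5%), and 20 in ND13 than in NA10 (51.6%).

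Array by array, the genes stood out on 1 array. On GFP control replicate 1, 24 of the 37 genes (64.9%) had their highest signal of the 12 arrays, against 7.32% of all probe sets, and 19 (51.4%, against 6.88%) lay at least 2-fold above the median of the other 11 arrays. The median of the 37 genes there was 2.06-fold that of the other arrays, or 1.04 on the log2 scale, whereas for all probe sets it was -0.02. The gene in the middle of this order was Mx2, which lay above background on no array (23.8 on this one). Of the 27 genes above background on all 12 arrays, 15 (55.6%) were highest there, and their median deviation from the median over the 12 arrays was 0.68, against 0.97 for all 37. On the scale of the 1.04, each array set against the median of the other 11, the remaining arrays lay between -0.37 (GFP control replicate 2) and 0.30 (GFP control replicate 3). ND13 replicate 1 had 0.27 on that scale. No other array held the highest signal of more than 5 of the genes. These are descriptions of single arrays and were not tested.

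**Figure D2:**
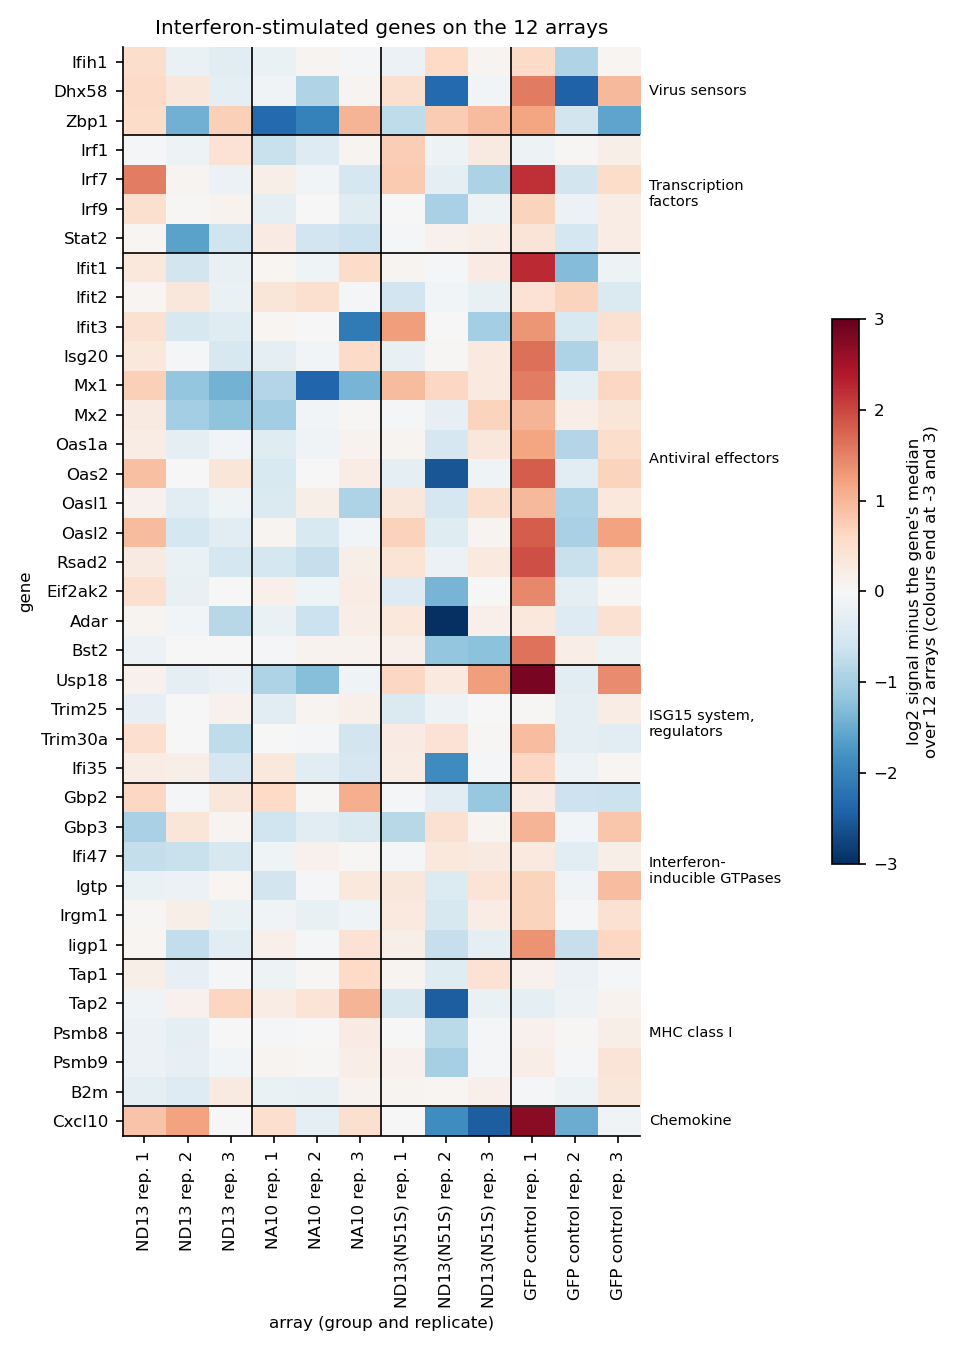
Log2 signal of each of the 37 genes (rows, by role) on each array (columns, by group) minus the median of that gene over the 12 arrays, red above and blue below it. The column of GFP control replicate 1 is red for most antiviral effectors and pale for the genes of MHC class I presentation.

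The 3 GFP control arrays differed among themselves more than those of the other groups. The median SD of the genes over the arrays of a group was 0.40 in ND13, 0.35 in NA10, 0.48 in ND13(N51S) and 0.71 in the GFP control on the log2 scale, where all probe sets had 0.38, 0.37, 0.50 and 0.39. Within the GFP control, replicate 1 was the highest array for 28 of 37 genes and replicate 2 the lowest for 30. In ND13, replicate 1 was highest for 23 genes, and in ND13(N51S), replicate 2 was lowest for 22.

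**Figure D3:**
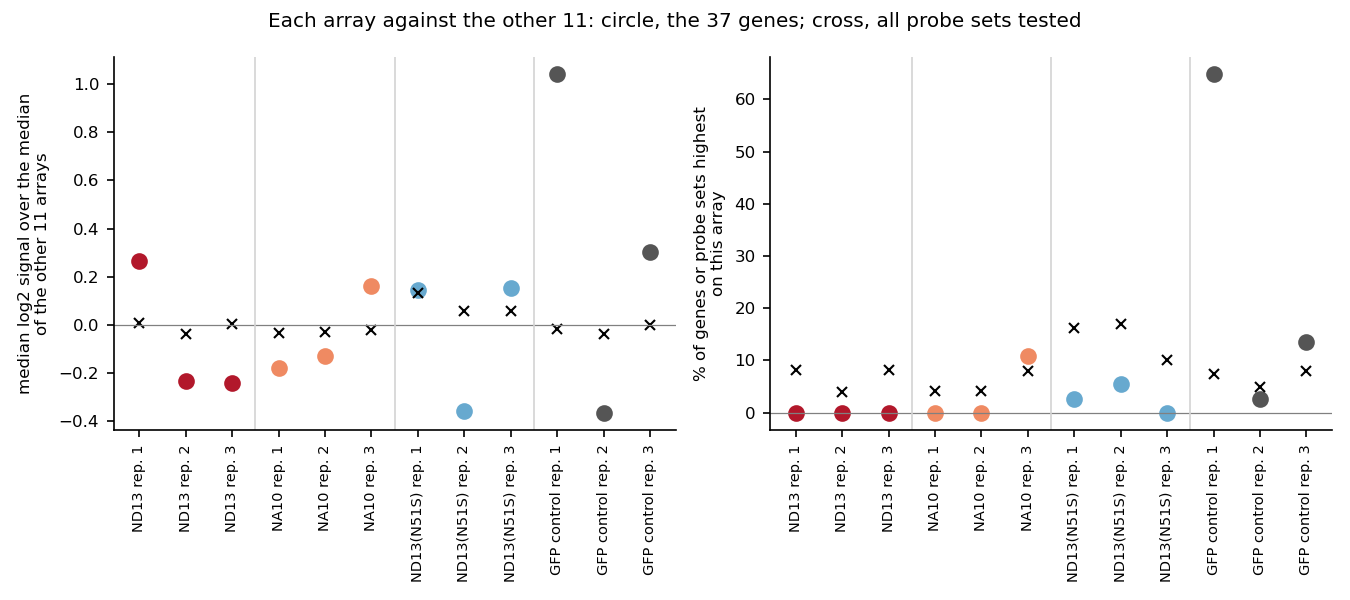
Each array set against the other 11, by group. Circles stand for the 37 genes and crosses for all probe sets tested; the left panel plots the median log2 signal over the median of the other arrays, which is 1.04 for the genes on GFP control replicate 1, and the right panel the share of genes or probe sets that were highest on the array, which is 64.9% there.

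Within single replicate numbers the differences had both signs. Within number 1 the median log2 difference of the genes minus the GFP control of that number was -0.76 in ND13, -1.23 in NA10 and -0.68 in ND13(N51S). Within number 2 the same differences were 0.22, 0.20 and 0.14, and within number 3 they were -0.47, -0.23 and -0.21. The sign thus differed between the numbers in all 3 comparisons. For all probe sets the 9 medians lay between -0.02 and 0.15.

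Among the virus sensors, Ifih1 encodes MDA5, a receptor for long double-stranded RNA. Its signal was 1129.7, 678 and 621 in ND13, 674, 824 and 743 in NA10, 694, 1177 and 827 in ND13(N51S) and 1156, 418 and 818 in the GFP control. The groups overlapped, with GFP control replicate 2 lowest and ND13(N51S) replicate 2 highest, just above GFP control replicate 1. Dhx58 encodes LGP2, a regulator of MDA5 and RIG-I signalling. It read 232, 197 and 128 in ND13, 146, 83.0 and 166 in NA10, 218, 30.8 and 147 in ND13(N51S) and 459.8, 29.2 and 308 in the GFP control, so that GFP control replicates 1 and 3 lay above every other array while replicate 2 lay below them all. This order rests on 1 probe set: a second one, above background on all 12 arrays, read 141, 130.3 and 119.8 in ND13, 101, 98.8 and 111 in NA10, 161, 183 and 136 in ND13(N51S) and 125, 88.8 and 108 in the GFP control, with GFP control replicate 1 the sixth highest. Zbp1, a sensor of Z-form nucleic acid, was above background on 5 of 12 arrays.

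Of the transcription factors, Irf7 amplifies type I interferon production. It had signals of 596, 219 and 182 in ND13, 234, 195 and 144 in NA10 and 356, 171 and 106 in ND13(N51S), against 945, 140.1 and 301 in the GFP control. GFP control replicate 1 was the highest array and ND13 replicate 1 the next. The mean of the 3 fusions differed from the GFP control by -0.66 ± 0.52 (log2, SE; adjusted p = 0.986), and by 0.07 without GFP control replicate 1. Stat2, a subunit of the complex that binds the ISRE, was above background on 10 of 12 arrays, with 70.7, 22.4 and 45.2 in ND13, 80.7, 45.8 and 43.7 in NA10, 66.0, 74.6 and 78.2 in ND13(N51S) and 88.6, 47.8 and 79.3 in the GFP control. A second, dimmer probe set of Stat2 had its second lowest signal on GFP control replicate 1, where the first had its highest.

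Irf1, a factor induced strongly by interferon-gamma, had signals of 817, 753 and 1132 in ND13, 521, 634 and 886 in NA10, 1381, 751 and 1001 in ND13(N51S) and 753, 846 and 937 in the GFP control. GFP control replicate 1 was here the lowest of its group. NA10 minus ND13(N51S) was -0.61 ± 0.27 on the log2 scale (adjusted p = 0.560), and -0.38 without ND13(N51S) replicate 1.

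Of the 14 antiviral effectors, 12 had their highest signal on GFP control replicate 1, among the 24 genes that did, the same 12 lay at least 2-fold above the median of the other arrays, and the median of the 14 was 2.94-fold. For the 3 virus sensors this median was 3.13-fold. Mx2, which was below background, is among the 12, and the exceptions were Ifit2 and Adar. Ifit1, whose protein binds viral RNA that lacks the host's cap methylation, had 96.1, 53.1 and 66.1 in ND13, 80.8, 70.1 and 112 in NA10, 81.9, 74.0 and 92.4 in ND13(N51S) and 362, 31.3 and 69.4 in the GFP control. All 9 fusion arrays lay between 2 of the GFP control arrays, replicate 2 below and replicate 1 above. The log2 difference of the 3 fusions was -0.22 ± 0.55 (adjusted p = 0.992) and became 0.76 without GFP control replicate 1.

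Rsad2 encodes viperin, which makes a nucleotide that stops viral RNA synthesis. It had 339, 246 and 194 in ND13, 197, 175 and 319 in NA10, 374, 250 and 347 in ND13(N51S) and 1086, 179 and 395 in the GFP control. GFP control replicate 1 stood far above the other 11 arrays, which overlapped. The 3 fusions differed from the GFP control by -0.70 ± 0.41 (log2; adjusted p = 0.986), and by -0.02 without that array. These values rest on 1 probe set. On a second, dimmer one, above background on 10 arrays, GFP control replicate 1 (87.6) ranked 3 of 12, below GFP control replicate 3 (96.5). On a further one, above background on 6 arrays, it (92.1) ranked 2, below ND13(N51S) replicate 1 (98.2).

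Mx1, a GTPase active against influenza and related viruses, split the groups in another way. Its signal was 69.5, 19.0 and 16.0 in ND13, 23.1, 8.26 and 16.2 in NA10, 82.3, 65.6 and 52.4 in ND13(N51S) and 124, 34.7 and 65.9 in the GFP control. It was above background on 1 ND13 array, on no NA10 array and on all 3 arrays of both ND13(N51S) and the GFP control. The measured NA10 signals lay below both of these without overlap (adjusted p = 0.872 against the GFP control and 0.424 against ND13(N51S)). With its arrays set to the background level, the mean of NA10 was at least 1.70-fold lower than each. Those levels, 36.4, 37.9 and 41.5, lie above GFP control replicate 2, so the lack of overlap with the GFP control rests on signals below background. Without GFP control replicate 1 the log2 difference of the measured NA10 signals from the GFP control was -1.71. In ND13 the log2 difference from the GFP control was -1.25 ± 0.71 (adjusted p = 0.958), and replicate 1 lay within the range of the GFP control. It was -1.92 without ND13 replicate 1 and -0.79 without GFP control replicate 1.

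Oas2, which makes the 2'-5' oligoadenylates that activate RNase L, had 377, 203 and 259 in ND13, 148, 202 and 236 in NA10, 168, 34.5 and 186 in ND13(N51S) and 709, 159 and 322 in the GFP control. The lowest value belonged to ND13(N51S) replicate 2, the array with the high 3' to 5' ratios, where it was below background, and the highest to GFP control replicate 1. ND13(N51S) minus GFP control was -1.70 ± 0.61 (log2; adjusted p = 0.576) and ND13 minus ND13(N51S) 1.40 ± 0.61 (adjusted p = 0.608). Without ND13(N51S) replicate 2 these were -0.91 and 0.62. Bst2, or tetherin, holds budding virus particles at the cell surface. It read 174, 197 and 193 in ND13, 186, 211 and 208 in NA10, 216, 87.3 and 82.6 in ND13(N51S) and 605, 225 and 175 in the GFP control, with the 6 ND13 and NA10 arrays close together. Its log2 difference between ND13(N51S) and the GFP control was -1.31 ± 0.44 (adjusted p = 0.548), and -0.78 without GFP control replicate 1.

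Ifit3, a partner of Ifit1, was near background, with 79.1, 40.9 and 44.8 in ND13, 60.1, 57.2 and 13.3 in NA10, 138, 57.7 and 28.1 in ND13(N51S) and 143, 41.6 and 79.1 in the GFP control. GFP control replicate 1 and ND13(N51S) replicate 1 were nearly level at the top. NA10 differed from the GFP control by -1.12 ± 0.73 (log2; adjusted p = 0.9999), by -0.41 without NA10 replicate 3, which was below background, and by -0.68 without GFP control replicate 1. Eif2ak2 encodes PKR, the kinase that stops translation on double-stranded RNA. Its signal was 279, 169 and 198 in ND13, 216, 180.3 and 228 in NA10, 149, 74.3 and 194 in ND13(N51S) and 533, 159 and 200.5 in the GFP control, with ND13(N51S) replicate 2 lowest. ND13(N51S) minus GFP control was -0.996 ± 0.44 (adjusted p = 0.640), -0.47 without GFP control replicate 1 and -0.60 without ND13(N51S) replicate 2. On a second, dimmer probe set of Eif2ak2, GFP control replicate 1 was the third highest array.

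Adar, the enzyme that edits adenosine to inosine in double-stranded RNA, was low on a single array. It had 361, 319 and 191 in ND13, 297, 216 and 391 in NA10, 424, 24.1 and 379.7 in ND13(N51S) and 422, 259.8 and 465 in the GFP control. All arrays but ND13(N51S) replicate 2 were well above background and overlapped. ND13(N51S) minus GFP control was -1.24 ± 0.80 (log2; adjusted p = 0.731), and 0.11 without ND13(N51S) replicate 2. The other effectors Isg20, Oas1a, Oasl1 and Oasl2 were highest on GFP control replicate 1, at 3.19-, 2.39-, 2.14- and 3.69-fold the median of the other arrays.

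Usp18, the protease that removes ISG15 from proteins and dampens the type I interferon receptor, had the largest excess of all 37 genes on GFP control replicate 1, 7.86-fold over the median of the other arrays. Its signal was 232, 175 and 189 in ND13, 112, 87.5 and 194 in NA10, 324, 260.2 and 502 in ND13(N51S) and 1523, 171 and 567 in the GFP control. All ND13 and NA10 arrays lay below all ND13(N51S) arrays, and GFP control replicate 2 lay among the ND13 and NA10 arrays. Against the GFP control the log2 difference was -1.42 ± 0.59 in ND13 (adjusted p = 0.784) and -2.09 ± 0.59 in NA10 (adjusted p = 0.713). Without GFP control replicate 1 these were -0.66 and -1.33. NA10 minus ND13(N51S), which uses no GFP control array, was -1.49 ± 0.59 (adjusted p = 0.520). The other genes of this class, Trim25, Trim30a and Ifi35, reached 1.03-, 1.90- and 1.60-fold on GFP control replicate 1.

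**Figure D4:**
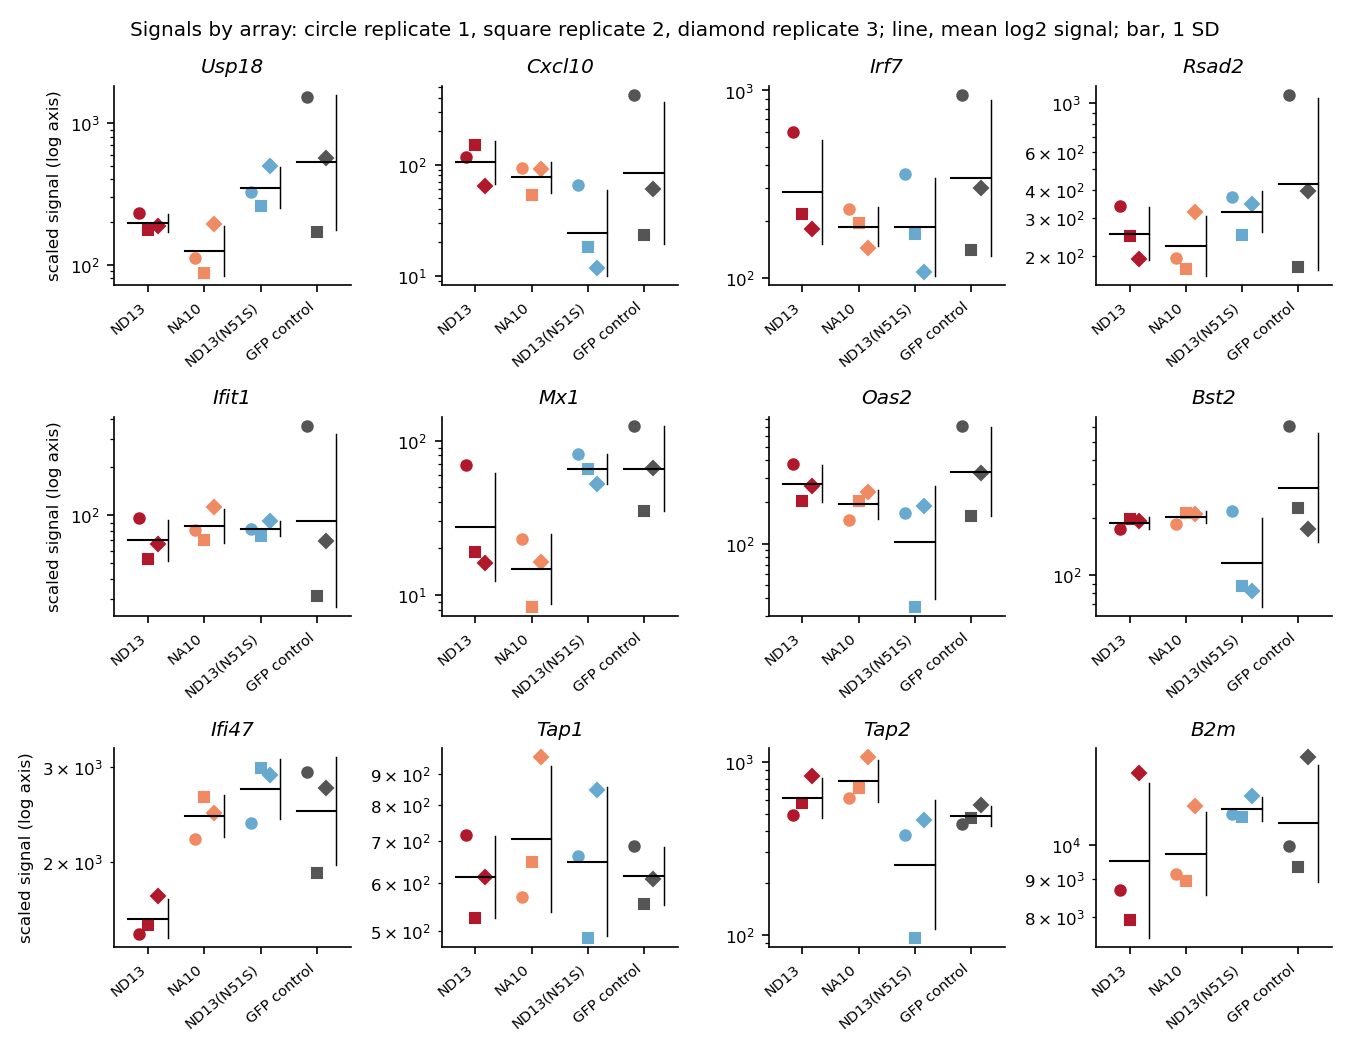
Scaled MAS5 signal (log axes) of 12 of the genes on each array, by group, with the mean log2 signal as a line and 1 SD as a bar. Usp18, Cxcl10, Irf7, Rsad2 and Ifit1 show 1 GFP control array, replicate 1, far above the rest, while Ifi47 shows 3 ND13 arrays below all others and Tap1 and B2m show overlapping groups.

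The interferon-inducible GTPases, which attack the vacuoles of intracellular pathogens and respond mainly to interferon-gamma, had their highest signal on that array in 3 of 6 cases, with a median of 1.65-fold over the other arrays. Ifi47 had signals of 1473, 1530.3 and 1731 in ND13, 2212, 2644 and 2466 in NA10, 2360.3, 2983 and 2898 in ND13(N51S) and 2936, 1913 and 2738 in the GFP control. All 3 ND13 arrays lay below all 9 others. The log2 difference of ND13 was -0.80 ± 0.19 from ND13(N51S) (adjusted p = 0.267), -0.63 ± 0.19 from NA10 (adjusted p = 0.9998) and -0.66 ± 0.19 from the GFP control (adjusted p = 0.430). Without GFP control replicate 1 the last of these was -0.54.

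Gbp2, a guanylate-binding protein, had 209, 133 and 170.4 in ND13, 204, 137 and 289 in NA10, 132, 108 and 61.4 in ND13(N51S) and 159, 88.0 and 85.9 in the GFP control. NA10 lay above ND13(N51S) without overlap, by 1.07 ± 0.39 on the log2 scale (adjusted p = 0.480), and differed from the GFP control by 0.92 ± 0.39 (adjusted p = 0.9999). A second probe set of Gbp2, also above background on all 12 arrays, read 148, 158 and 237 in NA10 and 214, 115 and 105 in ND13(N51S), which overlapped. With the first, ND13 minus GFP control was 0.66 ± 0.39 (adjusted p = 0.977). Gbp3, of the same family, had 158, 398 and 330.0 in ND13, 204, 244 and 229 in NA10, 173, 424 and 329 in ND13(N51S) and 623, 292 and 549 in the GFP control. All NA10 arrays lay below all GFP control arrays, with a log2 difference of -1.04 ± 0.41 (adjusted p = 0.9999). Iigp1, an immunity-related GTPase, had 250, 143 and 190.3 in ND13 and 606, 149 and 365 in the GFP control, which overlapped, with a difference of -0.76 ± 0.43 (adjusted p = 0.958) that was -0.30 with GFP control replicate 1 left out and -1.31 with replicate 2 left out.

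Of the 5 genes of MHC class I presentation, 0 were highest on GFP control replicate 1, and their median there was 1.11-fold that of the other arrays. B2m, the light chain of MHC class I, had 8716, 7936 and 12515 in ND13, 9139.9, 8948 and 11293 in NA10, 11016, 10899.7 and 11654 in ND13(N51S) and 9964, 9356 and 13136 in the GFP control, and all groups overlapped. Tap1, a subunit of the peptide transporter whose window above holds no ISRE letters, had 715, 527 and 611 in ND13, 568, 648 and 957 in NA10, 662, 487 and 846 in ND13(N51S) and 687, 554 and 608 in the GFP control. These groups overlapped as well.

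Tap2, the other subunit of the transporter, had 494, 579 and 823 in ND13, 620.4, 706 and 1065 in NA10, 376, 95.5 and 462 in ND13(N51S) and 435, 476 and 565 in the GFP control. All ND13 and NA10 arrays lay above all ND13(N51S) arrays, and ND13(N51S) replicate 2, with the high 3' to 5' ratios, was far below the rest. The log2 difference from ND13(N51S) was 1.28 ± 0.47 in ND13 (adjusted p = 0.558) and 1.61 ± 0.47 in NA10 (adjusted p = 0.356). Without ND13(N51S) replicate 2 these were 0.57 and 0.90. Against the GFP control it was 0.34 ± 0.47 in ND13 (adjusted p = 0.9997) and 0.66 ± 0.47 in NA10 (adjusted p = 0.9999), which became 0.13 without ND13 replicate 3 and 0.44 without NA10 replicate 3. Psmb8, Psmb9 and Tap1, subunits of the immunoproteasome and the transporter, were also lowest on ND13(N51S) replicate 2.

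Cxcl10, a chemokine that draws T cells, was close to background on many arrays. Its signal was 118, 152 and 64.5 in ND13, 93.2, 53.3 and 91.1 in NA10, 66.2, 18.1 and 11.8 in ND13(N51S) and 425, 23.3 and 60.6 in the GFP control. GFP control replicate 1 stood alone at 6.60-fold the median of the others, and 1 of 3 ND13(N51S) arrays was above background. The 3 fusions differed from the GFP control by -0.54 ± 0.73 (log2; adjusted p = 0.986), and by 0.63 without that array. ND13 minus ND13(N51S) was 2.12 ± 0.90 (adjusted p = 0.602), a value that uses signals below background on 2 of the ND13(N51S) arrays, and the lowest ND13 array lay just below the highest ND13(N51S) array.

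Split by the ISRE letters, the median log2 excess on GFP control replicate 1 was 1.09 for the 15 measured genes with the letters in a window, 0.45 for the 14 with a window but without them, and 1.69 for the 8 without a window, Usp18 among these. Within the first set the range was -0.13 (B2m) to 2.72 (Cxcl10), and within the second -0.17 (Irf1) to 2.28 (Irf7). For the 11 genes with further probe sets, 3 of the 16 other probe sets were highest on GFP control replicate 1, and 2 of the 7 that were above background on all arrays.

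Of 72 other genes of the pathway, listed by their roles, 57 were measured, and 9 (15.8%) were highest on GFP control replicate 1, against 7.32% of all probe sets. On ND13(N51S) replicate 1, 10 (17.5%) were highest, against 16.1% of all probe sets. Ifnb1, the gene of interferon-beta, had 73.7, 59.6 and 52.4 in ND13, 34.0, 68.0 and 64.6 in NA10, 81.1, 60.5 and 83.2 in ND13(N51S) and 28.2, 75.5 and 83.0 in the GFP control, and was above background on 9 of 12 arrays. On GFP control replicate 1 it was below background. Ifnar1, a subunit of the type I interferon receptor, had 351, 423 and 243 in ND13, 370.1, 371 and 167 in NA10, 404, 177 and 282 in ND13(N51S) and 375, 335 and 278 in the GFP control. Ifngr1, of the interferon-gamma receptor, had 617, 1003 and 482 in ND13, 622, 901 and 615 in NA10, 1074, 634 and 581 in ND13(N51S) and 608, 776 and 516 in the GFP control. Both receptor genes overlapped between all groups. Of the 23 measured genes listed as other interferon-induced genes, 5 (21.7%) were highest on GFP control replicate 1, against 7.32% of all probe sets. Among these were Parp14 (940.5), Cmpk2 (248) and Ifitm3 (8326), which were picked after their values were seen. Another 5 were highest on GFP control replicate 3. The median log2 deviation of the 23 from their median over the arrays was 0.12 on GFP control replicate 1. It was 0.13 on ND13 replicate 1 and 0.16 on ND13(N51S) replicate 2, so this list did not stand out there.

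Of the 57 pathway genes, 1 passed the test in a comparison with the GFP control. Ifitm6, of a family of membrane proteins that block virus entry, had 745, 419.6 and 643 in ND13, 250, 171 and 188 in NA10, 312, 518 and 315 in ND13(N51S) and 185, 141 and 135 in the GFP control. All ND13 arrays lay above all GFP control arrays, and it rose in ND13 by 1.95 ± 0.29 on the log2 scale (adjusted p = 0.0236), where 0.0840% of all probe sets were called higher. Without GFP control replicate 1 the change was 2.09 with an adjusted p of 0.0645. The call was also lost when ND13 replicate 1 (adjusted p = 0.222), ND13 replicate 3 (0.0810), GFP control replicate 2 (0.120) or GFP control replicate 3 (0.103) was left out, with log2 differences of 1.77, 1.88, 1.89 and 1.86, and under plain eBayes (0.104), quantile normalisation (0.0505), a limma fit of the 2 groups alone (0.0612), the block on fewer arrays, GFP control replicate 1 being left out (0.0986), and the methods' t-test (Benjamini-Hochberg adjusted p = 0.968). Ifitm2, of the same family, was 0.79 higher in ND13 than in ND13(N51S) on the log2 scale (adjusted p = 0.130), and rose in the limma fit with the replicate number as a block (adjusted p = 0.0401). Irf8, a myeloid transcription factor, had 381, 410.0 and 372 in ND13, 194, 279 and 243 in NA10, 405, 404 and 312 in ND13(N51S) and 358, 215 and 216 in the GFP control and was not called. Ly6a was not measured by a probe set of 1 gene.

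Marker lists of other cells are given beside the excess, with medians of the log2 deviation from the median over the arrays. On GFP control replicate 1 it was -0.24 for 12 macrophage and monocyte markers, -0.49 for 7 dendritic cell markers, -0.35 for 10 neutrophil markers, -0.16 for 10 stem and progenitor markers and -0.17 for 10 fibroblast genes, for the producer line. The summed signal of the macrophage list was 5745 to 8490.4 in ND13, 4397 to 5405 in NA10 and 5543 to 11094 in ND13(N51S), against 5144, 2907 and 2873 in the GFP control. It was thus highest on replicate 1 within the GFP control, where Csf1r, the receptor of macrophage colony-stimulating factor, read 3042, 1201 and 1418. Of the 12 macrophage markers 2, Marco (70.5) and Ccr2 (559), were highest of the 12 arrays on GFP control replicate 1, 2 were lowest there, and 9 lay above background.

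Some markers of other lists were low on that array, though not on that array alone. Of the 10 neutrophil markers 4 (40%, against 8.89% of all probe sets) had their lowest signal there: Ngp, at 164, 1303 and 774 in the GFP control, S100a9, at 129, 977 and 538, and Ltf and Camp. Of the 10 stem and progenitor markers 3 (30%) were lowest there, namely Flt3 (329), Hlf (374) and Procr (142). The paper lists all 3 among the genes that ND13 and NA10 raised over the GFP control, so a low control signal is no sign of fewer stem cells. Other markers of the list, Kit, Mecom, Meis1, Cd34, Myb and Gata2, ranked 4, 7, 8, 9, 9 and 10 from the highest of 12 there. The summed neutrophil signal was 9049 to 20839 in ND13, 11532 to 20200.5 in NA10, 17069 to 21946 in ND13(N51S) and 14760 to 19949 in the GFP control, and that of the stem and progenitor list was 17029 to 17569 in ND13, 18864 to 21135 in NA10, 18247 to 21175 in ND13(N51S) and 16098 to 18464 in the GFP control. The fibroblast list summed to 880.8 to 928 in ND13, 1053 to 1325 in NA10, 1625 to 2366 in ND13(N51S) and 977 to 1656 in the GFP control, with 7 of its 10 genes above background on replicate 1. The part of these cells, of the fraction named in the record of this array or of anything else particular to it in its signals was not tested.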

How the data were processed

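RNA of sorted GFP+ Sca-1+ Lin- cells of 12 samples, grouped by their labels, was hybridised to MOE430A arrays. The authors deposited one signal intensity per probe set on a linear scale, made with MAS5 from the scanned arrays and brought to a common trimmed mean, for 22690 probe sets. Intensities and not counts were deposited, so precision was limited by the number of arrays.

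The deposited intensities were put on the log2 scale without further scaling (floor 0.01, with 0 values at or below it), and 64 control probe sets were left out. All group comparisons used limma 3.58.1 in R 4.3.3 (lmFit on the 4 groups, eBayes with trend and robust) with Benjamini-Hochberg adjustment over 22626 probe sets. Log2 differences carry limma's SE, and a level below background on every array of a group was replaced by the background of each array for a bound of the form "at least". Probe sets were named through the platform annotation and RefSeq gene numbers. Python 3.11.15, pandas 2.3.3 and matplotlib 3.10.9 were used for counts, motif searches and plots. The fit was tested on simulated data.

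Genes given with values were those called in any comparison, the 3 highest and 3 lowest differences from the GFP control among genes above background on all arrays of at least 1 of the 2 groups compared, Ifit1, Isg15, Irf7, Stat2, Usp18, Rsad2, Cxcl10, B2m and Tap1, and of the other pathway genes Ifnb1, Ifnar1, Ifngr1, Irf8, Ly6a and those called. Gbp3 and Eif2ak2 were added after their unadjusted p had been seen. The genes and lists were chosen with earlier results of these data known.

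The alternatives tried were leaving out dim probe sets, adding a pseudocount, quantile normalisation, centring on the median, eBayes without trend, fitting 2 groups alone, the methods' t-test, averaging the probe sets of a gene, each array left out in turn, both arrays in doubt left out, and the replicate number as a block. Deviations from group means, over the probe sets whose mean signal lay above the median of all, correlated at 0.106 to 0.596 between arrays with the same number and at -0.422 to 0.107 between arrays with different numbers. The numbers in the labels were therefore taken to pair the arrays. The main fit held no term for them, and the block was run only as an alternative. Differences, SE and p-values of single genes are thus from the fit without pairing, unless another setting is named.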

Additional observations from a re-analysis of the deposited data

How the results depend on the processing

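In 170 of 174 alternative counts 0 of the 37 genes were called. The methods' t-test without adjustment called 1 gene for NA10 against the GFP control (2.31% of all probe sets) and 1 for ND13 against ND13(N51S) (2.98%). It called 2 for NA10 against ND13(N51S) (3.88%) and 1 for ND13 against NA10 (2.10%). With the replicate block 0 genes were called in every comparison, and pairing the arrays changed no adjusted call of these genes, while more of them were lower than in the GFP control at an unadjusted p. Its lowest adjusted p values against the GFP control were 0.208 in ND13, 0.258 in NA10 and 0.235 in ND13(N51S). The block also called Ifitm2 for ND13 against ND13(N51S). The lowest adjusted p of any of the 37 genes in any limma fit was 0.0906.

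With each array left out in turn, the median log2 difference of the 37 genes from the GFP control ranged over -0.761 to -0.00629 in ND13, -0.708 to -0.0542 in NA10, -0.808 to 0.0129 in ND13(N51S) and -0.833 to -0.101 in all 3 fusions. The lower ends leave out GFP control replicate 2 and the upper ends replicate 1. Over the same settings it ranged over -0.22 to 0.10 for ND13 minus ND13(N51S), -0.13 to 0.09 for NA10 minus ND13(N51S) and -0.05 to 0.15 for ND13 minus NA10. Without both arrays in doubt it was 0.12 for ND13(N51S) minus the GFP control.

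Single genes changed sign as well. With 1 array left out, the log2 difference of the 3 fusions from the GFP control ranged over -1.01 to 0.76 for Ifit1, -1.31 to 0.0705 for Irf7 and -1.47 to 0.63 for Cxcl10. Without both arrays in doubt it was 0.79 for Ifit1, 0.0915 for Irf7, 0.0368 for Rsad2 and 0.70 for Cxcl10, and with the block and without GFP control replicate 1, a setting chosen after seeing the data, it was 0.70 for Ifit1 and 0.31 for Cxcl10. For Adar, ND13(N51S) minus the GFP control ranged over -1.95 to 0.11, and was 0.21 without both arrays in doubt. The cause was not tested.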
